A study of Drosophila melanogaster with 2 samples.

Results

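The translation initiation and elongation factor genes of Drosophila melanogaster were examined for peaks of CG14441, an uncharacterised fly protein, at their promoters. The genes were taken by name, as every protein-coding gene on the 6 chromosome arms whose symbol starts with eIF or eEF in the Ensembl annotation. There were 52 of 13945 protein-coding genes, 44 eIF and 8 eEF. The rule used no measured value. The chromatin came from whole embryos of the strain CG14441-GFP, aged 0 to 24 h, which carried an insertion that targets CG14441 and expressed a CG14441-eGFP fusion. It was immunoprecipitated with an anti-GFP antibody and sequenced (ChIP-seq). Both biological replicates were of this 1 group. There was no second condition, and no control was analysed here, so no test over samples was possible and the results are values and counts. The labels do not say what drives the fusion, and whole embryos hold all cell types, so signal from many cells with little binding and from few cells with much cannot be told apart.

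Initiation factors bring the small ribosomal subunit, the initiator tRNA and the capped mRNA together and find the start codon. The eIF4 factors bind the cap and unwind the leader, eIF3 is the scaffold on the small subunit, eIF2 carries the initiator tRNA, eIF2B recharges eIF2 with GTP, and eIF5B joins the large subunit. Elongation factors then deliver aminoacyl-tRNAs and move the ribosome along. Early fly embryos depend on translation of maternal mRNAs, and these genes are expressed in nearly every cell, apart from several paralogs that are used mainly in the germline.

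A peak was here an entry of the conservative list of the whole series thresholded by the authors. All its entries had an irreproducible discovery rate (IDR, a measure of how well replicates rank a peak alike) of 0.01 or below. It counted for a gene when its summit lay within 500 bp of any of the gene's transcription start sites (TSSs). Signals are those of the authors' peak caller, whose scale is not stated, and the depth is unknown. Of the 52 genes, 12 had such a peak (23.1%, exact 95% interval 12.5 to 36.8, for counting error only), and 40 had none. Among all protein-coding genes 18.9% had one, a value inside that interval. The 12 were eIF6, eEF1gamma, eIF5B, eIF3c, eIF1, eEF1alpha1, eIF3h, eEF5, eIF3a, eIF2D, eIF3m and eIF4G2, from the highest signal to the lowest.

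The sequences at the summits of 5 of these genes and of eIF4EHP are given here because they show what the summits do and do not share. They were read from the RefSeq genome (dm6 coordinates) in the direction of the gene, 5′ to 3′, up to 75 bases on each side of the summit and never into an annotated exon. They were taken only from peaks on 2L, 3L and 3R, chosen from the highest signal down and without eIF5B, whose summit lies in an annotated exon. So eIF3a and eIF2D are shown although their signals lie below the median of all promoter peaks. The sequences are printed by DRE content and not by signal, so eIF3h stands after eIF3a and eIF2D although its signal is higher. The other arm's 5 peaks (eIF6, eIF3c, eEF1alpha1, eEF5 and eIF3m) are not shown, and none of them has a full DRE within 100 bp of its summit. eIF4EHP, which has a strong candidate (an entry of the ranked series list that is not in the conservative list), was added after its values were seen. Capitals mark CGATA on either strand, the core of the DNA replication-related element (DRE, TATCGATA), to which the factor DREF is known to bind.
eEF1gamma (chr3R:29220070-29220171, plus strand, 102 bases, summit at base 76): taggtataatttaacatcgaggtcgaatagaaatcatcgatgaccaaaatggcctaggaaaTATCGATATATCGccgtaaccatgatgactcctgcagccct
eIF1 (chr3L:3222961-3223084, plus strand, 124 bases, summit at base 49): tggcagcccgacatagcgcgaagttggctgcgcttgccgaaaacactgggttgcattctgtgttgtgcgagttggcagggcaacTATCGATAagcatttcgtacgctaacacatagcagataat
eIF3a (chr3R:4433896-4433964, minus strand, 69 bases, summit at base 45): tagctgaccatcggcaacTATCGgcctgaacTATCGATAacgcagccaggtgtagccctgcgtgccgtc
eIF2D (chr3R:29151795-29151938, minus strand, 144 bases, summit at base 76): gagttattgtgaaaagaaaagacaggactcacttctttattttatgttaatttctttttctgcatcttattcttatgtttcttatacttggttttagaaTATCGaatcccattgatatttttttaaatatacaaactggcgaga
eIF3h (chr2L:5052394-5052544, minus strand, 151 bases, summit at base 76): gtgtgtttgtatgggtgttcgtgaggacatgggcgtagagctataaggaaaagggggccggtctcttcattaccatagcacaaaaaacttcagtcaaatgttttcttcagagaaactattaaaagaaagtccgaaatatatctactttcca
eIF4EHP (chr3R:24109109-24109259, minus strand, 151 bases, summit at base 76): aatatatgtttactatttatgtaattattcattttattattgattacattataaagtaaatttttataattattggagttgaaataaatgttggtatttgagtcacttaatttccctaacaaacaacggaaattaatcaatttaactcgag
The eEF1gamma, eIF1 and eIF3a stretches each hold a full DRE, centred 10, 40 and 9 bp from the summit. The eIF2D stretch holds the core alone, and those of eIF3h and eIF4EHP hold neither.

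**Figure D1:**
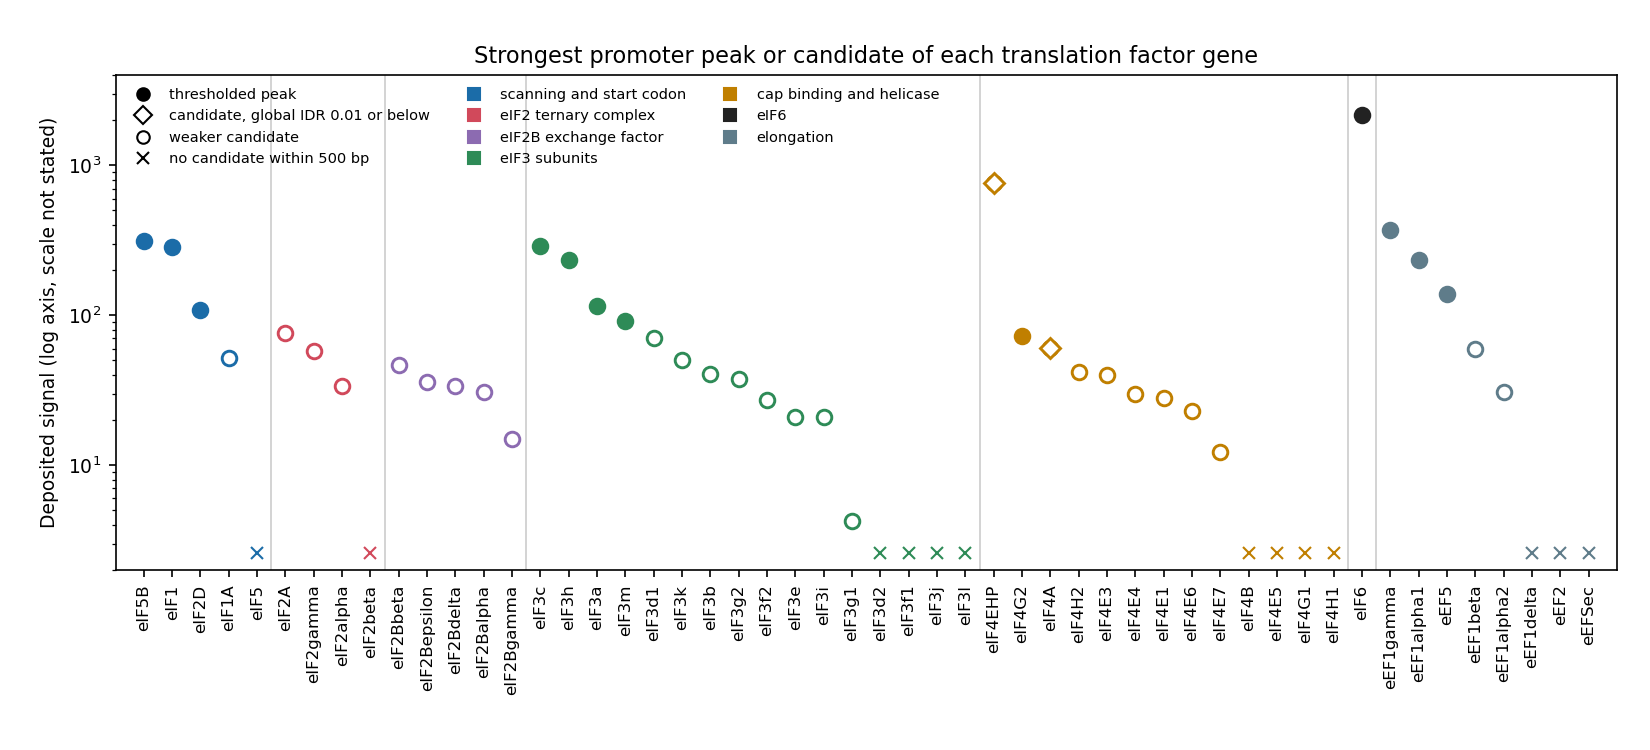
Deposited signal (log axis) of the strongest promoter peak, or of the strongest weaker candidate, for each of the 52 genes, ordered by role. Filled circles are the 12 thresholded peaks, diamonds the candidates at an IDR of 0.01 or below (eIF4EHP and eIF4A), open circles the other 25 candidates and crosses the 13 genes with no candidate within 500 bp; eIF6 stands far above the rest.

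By far the strongest peak was at eIF6 (FBgn0034915), which keeps the large subunit from joining too early and takes part in its maturation. Its peak (2R:23850262-23850554) had a signal of 2177, and only 4 of the 2141 promoter peaks of the series were stronger. The replicate columns gave 1229 and 963, a mean of 1096 ± 188 (SD, n = 2), both far above those of any other peak among these genes. The summit lay 105 bp upstream of the single TSS (-105 bp), inside the antisense RNA gene asRNA:CR45928, whose own TSS is 29 bp from that of eIF6. In the replicates' own lists the summits stood at -104 and -105 bp.

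The group labelled scanning and start codon was made by symbol, of eIF1, eIF1A, eIF5, eIF5B and eIF2D. The label is loose, since eIF5B and eIF2D act in subunit joining and tRNA placement. In this group 3 of 5 had a peak (60%, exact 95% interval 14.7 to 94.7, which covers the 18.9% of all genes), and 2 of 5 in the thresholded list of replicate 2. eIF5B (FBgn0026259), the GTPase of subunit joining, had a signal of 312 (3L:3460568-3460891), with 193 and 122 in the replicate columns (158 ± 50.3, SD, n = 2). Its summit was 127 bp upstream of the nearest TSS, in an untranslated exon of another eIF5B transcript. eIF1 (FBgn0035423), which guards the choice of start codon, had a signal of 285 (3L:3222916-3223088; columns 111 and 159, 135 ± 33.8, SD, n = 2). That summit was far upstream of eIF1, at -332 bp, and close to the divergent ribosomal protein gene RpL28, at -49 bp, so counted by the nearest gene the peak belongs to RpL28. eIF2D (FBgn0041588), known from mammals to place tRNA on the small subunit without eIF2, had a signal of 109 (3R:29151701-29152024), 69 bp upstream. Its columns, 78.1 and 34.3 (56.2 ± 31.0, SD, n = 2), differed most among the 12 relative to their mean, and the peak was in the thresholded list of replicate 1 but not of replicate 2. eIF1A, a partner of eIF1, had only a weak candidate of 51.9, at 52.9 in the first column and 5.77 in the second, and eIF5, the GTPase activator of eIF2, had none.

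None of the genes of the eIF2 cycle had a peak. The 4 genes that encode eIF2 subunits and eIF2A, and the 5 of eIF2B subunits, were all without one. With so few genes the exact 95% intervals reach 60.2% and 52.2%, and both cover the 18.9% of all genes. The strongest candidate was at eIF2A, whose product is known from mammals to bind initiator tRNA, with a signal of 75.9. It stood in the relaxed series list and in the thresholded list of replicate 2 (signal 52.0), but the first replicate column held only 18.9 and its -log10 IDR was 0.192. At eIF2gamma, which holds the GTP, the candidate reached 58.0 (columns 23.8 and 28.7). The gene shares its TSS with Su(var)3-9, a histone methyltransferase gene, and the divergent gene Set starts 83 bp from the same summit. eIF2alpha, the subunit that stress kinases phosphorylate, reached 33.9 (columns 14.7 and 16.0), and eIF2beta had no candidate. The eIF2B candidates ran from 14.97 at eIF2Bgamma to 46.7 at eIF2Bbeta. Just beyond the window, a summit 678 bp upstream of eIF2Bbeta was the strongest peak of the whole list (X:2703709-2704062, signal 3245), and it lay 41 bp upstream of the neighbouring gene Ugalt. A second summit outside the window, of signal 118, stood 744 bp upstream of eIF2Bdelta and nearest to CG30414. None of the 12 summits lay between 400 and 500 bp from the nearest TSS of its own factor gene.

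Of 16 genes of eIF3, 4 had a peak (25%, exact 95% interval 7.27 to 52.4, which covers the 18.9% of all genes). eIF3c (FBgn0034258), a core subunit, led with a signal of 289 (2R:17665601-17665681), 179 and 108 in the replicate columns (144 ± 50.3, SD, n = 2), and a summit 34 bp upstream. eIF3h (FBgn0022023) followed with 235 (2L:5052410-5052540), and its columns lay close together, at 110 and 120 (114.7 ± 7.11, SD, n = 2). Its summit lay 311 bp downstream of the nearest TSS, in an intron, and 374 bp upstream of the divergent gene senju. eIF3a (FBgn0037249), known from yeast to form the core together with eIF3c, had 114 (3R:4433758-4434081), with columns of 40.5 and 73.2 (56.8 ± 23.1, SD, n = 2). That summit sat between divergent start sites, 25 bp from eIF3a and 45 bp from CG1074, and the peak was in the thresholded list of replicate 2 alone. eIF3m (FBgn0033902) had 90.9 (2R:14164590-14164913), columns of 51.9 and 32.3 (42.1 ± 13.8, SD, n = 2) and a summit 73 bp downstream, and was in the thresholded list of replicate 1 alone. Of the remaining 12, eIF3d1, whose human counterpart can bind the cap, came nearest with a candidate of 70.2 that was thresholded in replicate 2 (signal 50.1) and in the relaxed list. eIF3b, eIF3e, eIF3f2, eIF3g1, eIF3g2, eIF3i and eIF3k had candidates between 4.22 (eIF3g1) and 50.2 (eIF3k), and eIF3d2, eIF3f1, eIF3j and eIF3l had none. At eIF3g1 the replicate columns were higher than that series signal, at 19.6 and 18.5. Where eIF3 has a paralog pair, neither gene of the pair had a peak (eIF3d1 and eIF3d2, eIF3f1 and eIF3f2, eIF3g1 and eIF3g2). These are few genes, and only 18.9% of all genes had a peak, so this is not read as a trait of the pairs.

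Of 13 genes of cap binding and its helicase, eIF4G2 alone had a peak (7.69%, exact 95% interval 0.195 to 36.0, which covers the 18.9% of all genes). eIF4G2 (FBgn0260634) is a scaffold paralog needed in the male germline. Its peak was the weakest of the 12, with a signal of 72.6 (3R:23819064-23819387), columns of 34.9 and 32.8 (33.8 ± 1.52, SD, n = 2) and a summit 11 bp downstream of a TSS that it shares with CG33111. It was in neither replicate's thresholded list, although both replicates' ranked lists held it. The ubiquitous scaffold gene, eIF4G1, lies on chromosome 4 and had no candidate in the series or in either replicate. eIF4EHP (FBgn0053100), a cap-binding protein that represses maternal mRNAs in the embryo, had a candidate second only to the eIF6 peak. Its signal was 767, with 467 and 310 in the replicate columns (388 ± 111, SD, n = 2) and a -log10 IDR of 5, the highest value listed. Its summit lay 224 bp upstream of eIF4EHP and 152 bp upstream of the divergent gene CG18428. The helicase gene eIF4A had a weak candidate at the threshold, with 60.1 (columns 33.3 and 31.8) and a -log10 IDR of 2.01. Neither candidate was in any of the 4 thresholded lists. In all, 119 ranked peaks on the 6 arms had an IDR of 0.01 or below and were not in the conservative list, for a reason not given in the sources used here. The general cap-binding gene eIF4E1 had a candidate of 28.1 and its paralogs eIF4E3, eIF4E4, eIF4E6 and eIF4E7 had 12.3 to 40.1, while eIF4E5, eIF4B and eIF4H1 had none and eIF4H2 had 41.8.

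Of the 8 elongation factor genes, 3 had a peak (37.5%, exact 95% interval 8.52 to 75.5, which covers the 18.9% of all genes). eEF1gamma (FBgn0029176), a structural part of the exchange complex of eEF1, had a signal of 371 (3R:29220049-29220221), the second highest of the 12, and columns of 155 and 214 (184 ± 41.5, SD, n = 2). Its summit stood at the same place, 27 bp upstream, in the series list and in both replicates. eEF1alpha1 (FBgn0284245), which carries aminoacyl-tRNA to the ribosome, had 235 (2R:11892000-11892093) and the 2 columns nearly equal, at 109 and 113 (111 ± 2.99, SD, n = 2). That summit was 87 bp upstream of the nearest of 4 start sites, within an intron of the gene. eEF5 (FBgn0285952), the factor that carries hypusine and relieves stalled ribosomes, had 139 (2R:24057617-24057940), columns of 65.4 and 81.0 (73.2 ± 11.0, SD, n = 2) and a summit 19 bp upstream. The paralog eEF1alpha2 had a candidate of 30.6 (columns 11.1 and 17.6). eEF1beta had 59.2 (columns 24.5 and 29.1), and eEF1delta, of the same exchange complex, and the selenocysteine factor gene eEFSec had none. eEF2, the translocase gene, was thresholded in replicate 2 alone (signal 63.3, 25 bp downstream) and had no candidate in replicate 1 or in the series.

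**Figure D2:**
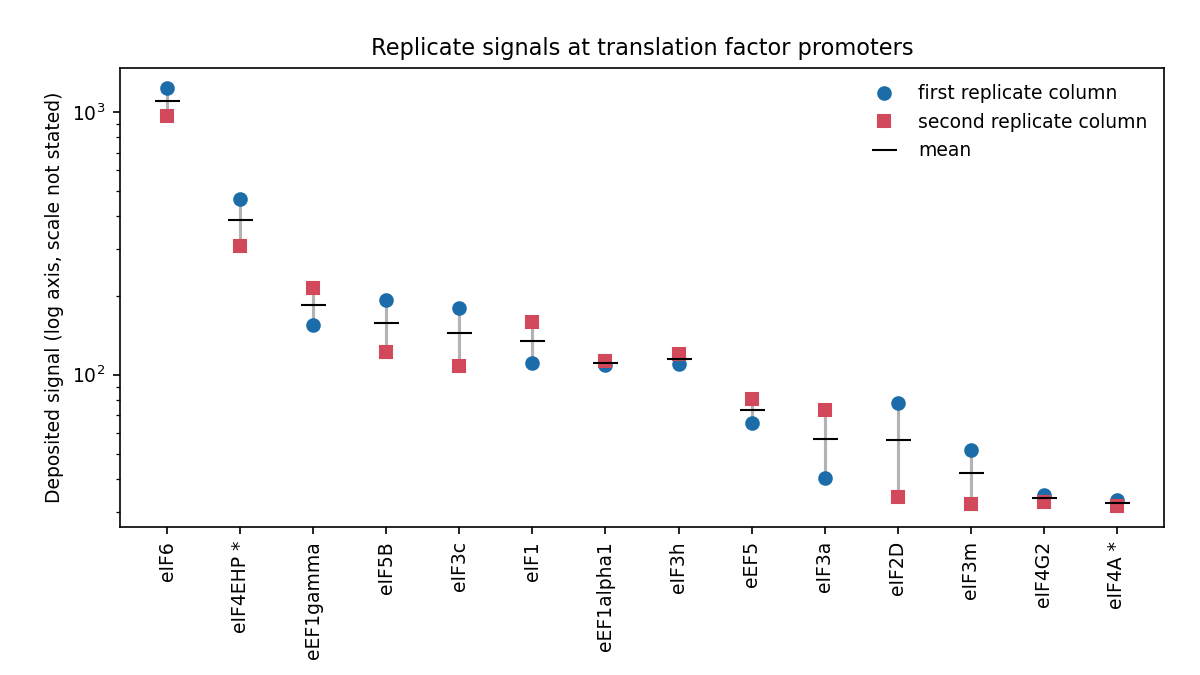
Signal in the first and second replicate column of the ranked series list (log axis) for the 12 promoter peaks and, marked with a star, the candidates at eIF4EHP and eIF4A; the dash is the mean. The columns lie close at eEF1alpha1, eIF3h, eIF4G2 and eIF4A and far apart at eIF2D and eIF3a.

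Between the replicates, 8 of the 12 genes had a peak in both thresholded lists, eIF2D and eIF3m in that of replicate 1 alone, eIF3a in that of replicate 2 alone and eIF4G2 in neither. The strongest 8 were the same 8 that both replicates listed. Over all 52 genes, the list of replicate 1 had 10 (15.9% of all protein-coding genes) and that of replicate 2 had 12 (15.5% of all). The first column was higher at 6 of the 12 peaks and the second at the other 6, whereas over all promoter peaks the first was higher at 65.2%. The SD was between 2.70% and 55.1% of the mean, with a median of 23.8%, against 15.8% over all promoter peaks. The strongest summits of the replicates lay within 30 bp of each other at 10 of the 12 genes, with a median gap of 14.5 bp and a largest gap of 130 bp, at eIF3m. For all promoter peaks, the shares in both thresholded lists and with replicate summits this close were not computed. Whether 8 and 10 of the 12 are usual is therefore not known here.

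The signals of the 12 peaks had a median of 235, against 130 over the 2141 promoter peaks (quartiles 87.9 and 233). Of the 12, 8 exceeded the median of all promoter peaks and 7 the upper quartile. By arm, 5 of the 13 genes on 2R had a peak (all protein-coding genes of that arm, 17.8%), as did 4 of 15 on 3R (all, 19.96%), 2 of 11 on 3L (all, 20.04%) and 1 of 5 on 2L (all, 18.9%). None of 7 on the X (all, 18.0%) or of 1 on chromosome 4 (all, 2.50%) had one. On each arm the exact 95% interval of the factor genes, 13.9 to 68.4 on 2R and 0 to 41.0 on the X, covered the share of all genes. By TSSs, 8 of the 20 factor genes with 2 or more TSSs had a peak and 4 of the 32 with a single one, and over all protein-coding genes the shares were 32.8% and 13.9%.

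**Figure D3:**
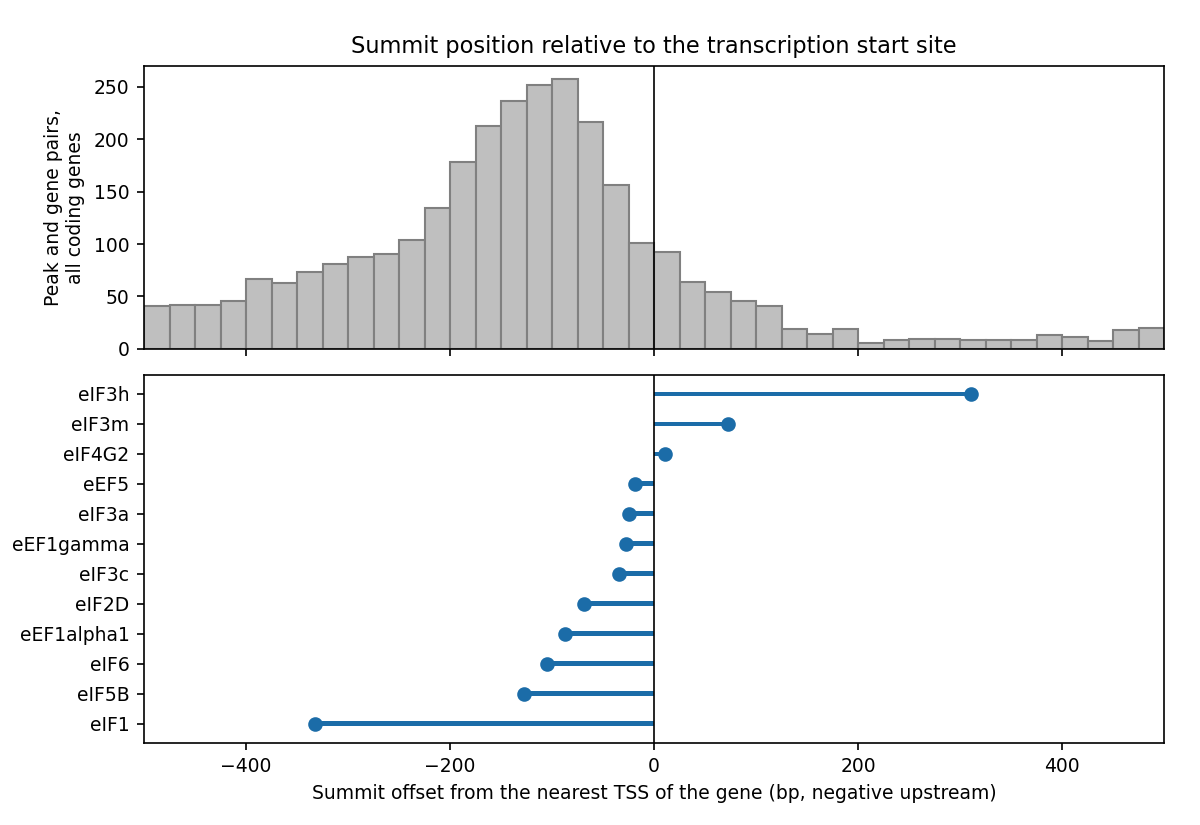
Summit position relative to the nearest TSS of the gene (bp, negative upstream): above, a histogram of the 2954 pairs of promoter peak and gene over all protein-coding genes; below, each of the 12 genes. The 9 upstream points lie left of 0, most of them within 150 bp, while eIF1 at -332 bp and eIF3h at 311 bp stand apart.

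The summits lay mostly just upstream of the start site. Of the 12, 9 were upstream and 3 downstream (eIF4G2, eIF3m and eIF3h), with a median of -30.5 bp. Over all 2954 pairs of promoter peak and gene, 84.0% were upstream, with a median of -127 bp. With each of the 2141 promoter peaks counted once, by its nearest TSS, 79.3% were upstream. Within 150 bp of the TSS lay 10 of the 12, against 51.9% of all pairs. The pairs count a shared peak once for each gene, also the farther one, while each of the 12 genes entered once with its strongest peak. The share within 150 bp was not computed by peak. At 5 of the 12 the summit also lay within 500 bp of a TSS of another protein-coding gene (eIF1, eIF3a, eIF3h, eIF3m and eIF4G2). Over all promoter peaks this held for 35.6%, with each peak counted once. The 12 were reached through genes, which favours peaks shared by several genes, so this is not a like-for-like comparison. At 4 of the 5 the second gene ran the other way, and at eIF4G2 it ran the same way from the same start.

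Beyond promoters, 3 of the 52 genes had peaks in their bodies more than 1000 bp from every TSS of the gene (5.77%, exact 95% interval 1.21 to 15.9), against 7.29% of all protein-coding genes. eIF5B had intronic peaks of 301 and 128, the first 27767 bp from its start and almost as strong as its promoter peak. That first peak was nearer to the start of sty, at 7901 bp. eIF4EHP, a long gene, had 3 intronic peaks of 255, 94.3 and 73.6, all thresholded, unlike the candidate at its promoter. All 3 were nearer to the start of Syx1A, at 4854 to 14069 bp. eIF4G2 had a peak of 117 in an intron that CG33111 and CG34355 overlap, 1021 bp downstream of its TSS and stronger than its promoter peak of 72.6.

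Around the summits, the DRE core was the most common of the motifs searched at the 12 genes. It was also the most common at the other promoter peaks and over all protein-coding promoters. Motifs were counted on either strand within 100 bp of the summit. CGATA was found at 9 of the 12 genes, in 16 matches, some of which overlap within 1 full DRE. The share was 36.2% of the 2129 other promoter peaks and 38.4% of all protein-coding promoters, taken as windows of 201 bp centred 100 bp upstream of the TSS. The windows thus differ in place relative to the TSS, since the median summit was at -30.5 bp for the 12 genes and -127 bp over all pairs. This was not adjusted for. Within 50 bp of the summit the count of genes with CGATA fell to 5, against 20.2% of the other promoter peaks and 20.4% of promoters. The full DRE, TATCGATA, was found at 3 of 12 (eEF1gamma, eIF1 and eIF3a), at 6.67% of other promoter peaks and at 7.39% of promoters. The genes without CGATA were eEF1alpha1, eIF3h and eIF3m. At eEF1gamma and eIF3a the nearest match was 4 and 8 bp from the summit, and at eIF6, the strongest peak, it was 96 bp away. Motif 1, searched as GGTCACAC, was at eEF1alpha1 alone (3.99% of other promoter peaks), and GAGAG at eIF3c and eIF3m (21.0%). CACGTG was at none of the 12 (2.16%), and neither was CAGCTG (12.6%) or the Zelda motif, searched as CAGGTAG (0.611%). TATAAA was at 3 (34.8%), CCAAT at 2 (33.9%) and CTTTTT at 2 (30.4%). The sequences of 7 bases most in excess at the summits of the other promoter peaks over their flanks were led by AGGGTTG, with AGCCCTG as the next. Then came CTATCGA, with a smaller ratio ACTATCG, and as the fifth ATCGATA, and these last 3 overlap the DRE. At least 1 of these 5 was near the summit at 6 of the 12 genes, at 23.7% of the other promoter peaks and at 22.1% of promoters. Within 50 bp this fell to 3 genes, 12.7% and 9.69%. AGGGTTG, the most in excess, was at none of the 12. The median A/T content of the 51 bases around the summit was 52.0% at the 12 genes (39.2% to 82.4%) and 66.7% at the other promoter peaks. Over the 201 bases used for the motifs it was 57.7% and 63.7%.

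Among the genes without a thresholded peak, 27 had at least a candidate in the ranked series list, which brings the genes with any entry to 39 of 52 (75%, against 77.7% of all protein-coding genes). At an IDR of 0.01 or below in that list stood 14 of 52, the 12 together with eIF4EHP and eIF4A, against 19.3% of all genes. The other 25 candidates had a median signal of 33.98 and a highest of 75.9. Over all 27, with eIF4EHP and eIF4A, the median was 35.6. For all genes with a candidate but no thresholded peak, also those at an IDR of 0.01 or below, it was 33.4. The summits of the 25 lay upstream in 12 cases and downstream or at the TSS in 13. The relaxed series list held 14 of the 52, adding eIF2A and eIF3d1, against 20.9% of all genes. The 13 genes with no candidate were eEF1delta, eEF2, eEFSec, eIF2beta, eIF3d2, eIF3f1, eIF3j, eIF3l, eIF4B, eIF4E5, eIF4G1, eIF4H1 and eIF5; of these, eIF4B, eIF4E5 and eIF4G1 had none in the ranked list of either replicate.

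**Figure D4:**
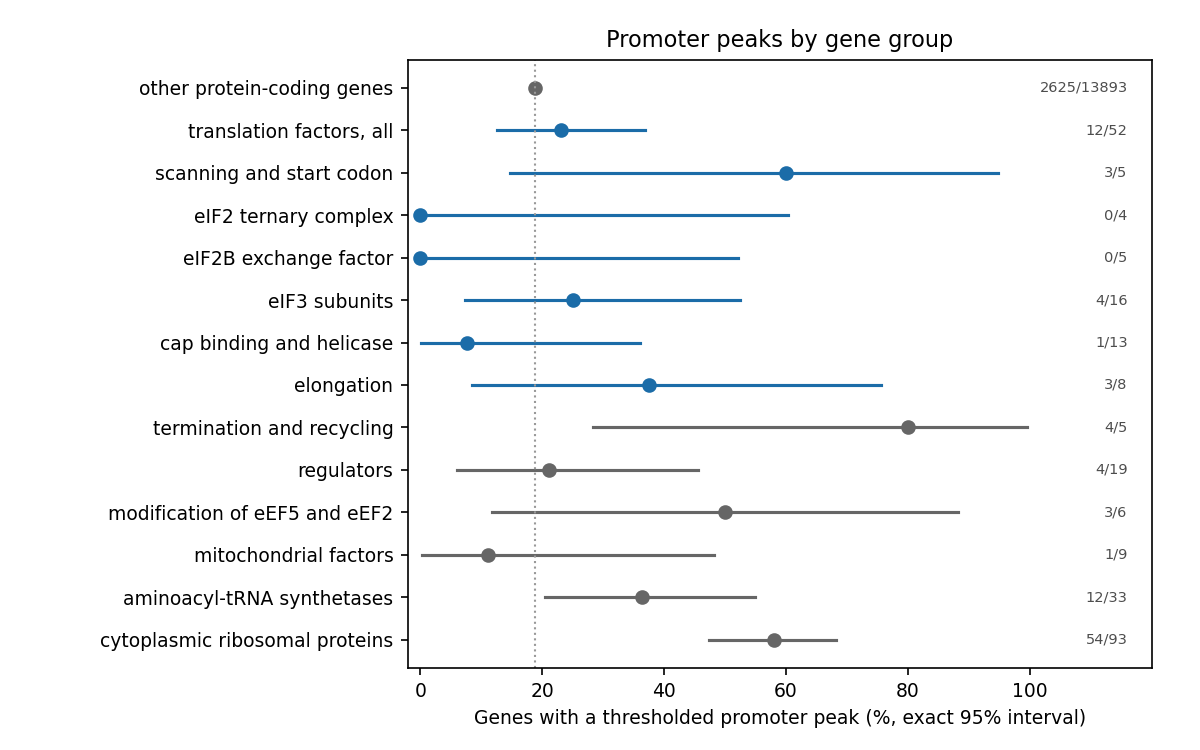
Share of genes with a thresholded promoter peak (points) and exact 95% intervals (lines, counting error only) for translation factor genes and their role groups (blue) and for other gene groups (grey); the dotted line is the share of the other protein-coding genes. The 52 factors, at 23.1%, have an interval that covers the dotted line.

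In the rest of the translation machinery, 12 of 39 genes of a list of other factors had a peak (30.8%, exact 95% interval 17.0 to 47.6, against 18.9% of all genes). At an IDR of 0.001 there were 6 of 39, against 13.3% of all genes. Termination and recycling had 4 of 5 (exact 95% interval 28.4 to 99.5), with signals of 179 at eRF1, 175 at eRF3, 152 at HBS1 and 78.6 at pelo. Modification of eEF5 and eEF2 had 3 of 6 (11.8 to 88.2), with 333 at Dph1, 191 at Dph2 and 134 at Dhps, which starts hypusine synthesis on eEF5. Regulators had 4 of 19 (6.05 to 45.6), led by larp with 214, and mitochondrial factors 1 of 9 (0.281 to 48.2). In the thresholded list of replicate 2, termination and recycling had 3 of 5 (14.7 to 94.7) and modification 2 of 6, against 15.5% of all genes. Aminoacyl-tRNA synthetase genes had 12 of 33 (36.4%, 20.4 to 54.9) and cytoplasmic ribosomal protein genes 54 of 93 (58.1%, 47.4 to 68.2). These shares stand side by side, and the differences were not tested.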

How the data were processed

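Peak lists from ChIP-seq of 1 group, CG14441-eGFP embryos with 2 biological replicates, were used. Per the labels, chromatin was sonicated to 200 to 800 bp. The authors' lists were made on dm6; per the deposited readme text they derive from alignments. For the aligner and the peak caller, name and version: not given in the sources used here. The deposited signal is the caller's value, of unstated scale; the deposited summit column (unit other) counts bp from where the peak begins; and the deposited IDR column is a -log10 value. Depth is unknown, since the lists hold no read counts. The lists analysed were the conservative and relaxed thresholded series lists, each replicate's thresholded and ranked list, and the ranked conservative series list, whose replicate columns carry no number; at the 12 genes they held a value of replicate 1's and of replicate 2's ranked list in 12 of 12 cases each.

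Genes and TSSs came from Ensembl release 115 (BDGP 6.54). Each gene was given its strongest peak. Coordinates are 1-based. Exact intervals are Clopper-Pearson at 95%. The assignment returned 200 of 200 peaks planted at known places. The 7-base sequences were ranked by the ratio of summit windows to flanks 400 to 500 bp away, among those at 50 or more summits of peaks not at the 52 genes. Of the other translation factors' symbols, 6 were not matched and are not analysed here. Members, lists and motifs were chosen with earlier results of these data known. Named were every gene with a peak, those with a peak in another thresholded list, the 5 strongest candidates, all genes with no candidate, summits up to 1000 bp away and up to 5 leading genes of the other list; further names were added after their values were seen. Software was matplotlib 3.10.9, scipy 1.17.1, numpy 2.4.6 and pandas 2.3.3 on Python 3.11.15. Alternatives were other lists, thresholds, windows and rules of assignment.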

Additional observations from a re-analysis of the deposited data

How the results depend on the processing

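No paired analysis was possible because both samples belong to the same group. The count of 12 genes stayed between 9 and 14 under the other lists, thresholds, windows and rules of assignment, and reached 39 only when candidates of any strength were counted. The share of all protein-coding genes moved too, from 13.3% at an IDR of 0.001 to 22.3% with a window of 1000 bp. For candidates of any strength it was 77.7%. A global IDR of 0.001 removed eIF2D, eIF3m and eIF4G2; a window of 250 bp removed eIF1 and eIF3h; 1 TSS per gene removed eEF1alpha1 and eIF3h; the nearest gene alone removed eIF1; a window of 1000 bp added eIF2Bbeta and eIF2Bdelta. Without replicate 1 there were 12 genes, 9 of them shared with the main 12, and without replicate 2 there were 10, all shared. Other translation genes fell from 12 to 6 at an IDR of 0.001. The median signal of 235 was 187 in the relaxed list, 285 at an IDR of 0.001, 187 with a window of 250 bp and 212 with 1 TSS per gene; in lists of single replicates, whose signals come from 1 library each, it was 110 to 111. Within 50 bp of the summit, 3 genes had 1 of the 5 sequences of 7 bases. Candidates at an IDR of 0.01, counted after seeing the data, gave 14 factor genes and 13 other translation genes. Whether weaker sites would pass with deeper sequencing was not tested, since the depth is unknown.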
